A study of Homo sapiens with 8 samples.

Results

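The 36 genes described here encode aminoacyl-tRNA synthetases, 20 of the cytosolic set and 16 of the mitochondrial set. They were chosen by gene symbol, in the older form in which the count tables write them (AARS for the present AARS1, and so on), out of 57996 symbols counted in each library, and the list does not cover every synthetase gene. The cells were HAP1, a near-haploid human line derived from a chronic myelogenous leukaemia. Wild-type HAP1 was compared with clone 11 of a knockout of BCDIN3D, the only knockout clone in the series, so the lost gene and other differences between clones cannot be told apart. Both genotypes grew for 48 h in IMDM medium with 10% serum, and RNA with an integrity number of 10 went into stranded total RNA libraries, 2 for each genotype, which the series calls biological replicates. Replicate 1 of both genotypes carries one date in its label and replicate 2 another. The labels do not state whether they came from independent cultures. The p-values below rest on how far the 2 libraries of a genotype differed, a spread partly shared across all tested genes. Some of that spread may be technical.

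Each aminoacyl-tRNA synthetase joins one amino acid to its tRNAs with the energy of ATP, and so sets which amino acid a codon is read as. Human cells keep separate nuclear genes for the enzymes of the cytosol and of the mitochondrion (the latter marked by a final 2 in the symbol), except that GARS, for glycine, and KARS, for lysine, each make a cytosolic and a mitochondrial form. BCDIN3D is a methyltransferase that caps the 5′ phosphate of cytosolic histidine tRNA, the tRNA that HARS charges. HARS2 charges the separate histidine tRNA of mitochondria, which makes the pair of histidine enzymes the members closest to the knocked-out gene.

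Total counts per library lay between 20065041 and 24415272. BCDIN3D itself had 7.40 and 4.90 CPM (counts scaled to a common library total, with TMM factors that correct for library composition) in wild-type and 1.56 and 2.71 CPM in knockout, with no overlap. Of 9 blood markers 8 were too low to be tested, none of them above 0.385 CPM in any library, and HBG1 was at 0 in all 4 libraries. The blood list summed to 11.3 and 12.03 CPM in wild-type against 1.04 and 1.56 CPM in knockout, most of it KIT. The 4 epithelial markers summed to 77.7 and 69.2 against 58.2 and 50.1 CPM, the 5 mesenchymal markers to 464 and 449 against 526 and 504 CPM, and the 5 neural markers to 718 and 844 against 710 and 792 CPM. Of the tested markers 1 of 1 blood (KIT), 3 of 3 epithelial and 4 of 5 neural ones (PAX6, SYT1, TUBB3 and NES) were called lower, and 1 of 4 mesenchymal ones, VIM, was called higher. SOX2, the most abundant neural marker, was not called, and the neural sums overlapped. The part of these marker differences in the results below was not tested.

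HARS and HARS2 lie back to back on chromosome 5 and are read in opposite directions. HARS spans 140673905 to 140691370 and HARS2 spans 140691455 to 140699305 (GRCh38, RefSeq), so 84 bases separate their start sites. This stretch is shown because both histidine enzymes start from it, each on its own side. It is printed on the strand of HARS2, with HARS to the left, and the capitals mark the core CCGGAAG of the ETS family of transcription factors, searched on both strands.
HARS to HARS2, GRCh38.p14 chr5:140691371-140691454, strand +: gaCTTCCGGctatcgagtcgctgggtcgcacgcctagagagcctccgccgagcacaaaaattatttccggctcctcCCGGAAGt
The core occurred 2 times in the 84 bases, once beside each start site and on opposite strands. It was found in 10.6% of 27305 RefSeq promoter windows of 300 bases (250 before and 50 after the start, 1 window for each gene). Among the 30 members with such a window it was in 9 of 16 cytosolic and 6 of 14 mitochondrial ones. HARS and HARS2 share the stretch above, so its 2 cores are counted in both sets. The windows were not matched for GC content. Its median was 61.84% in cytosolic and 62.33% in mitochondrial members, against 58.33% over all windows. These are matches of letters, not measured binding.

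Neither histidine enzyme changed detectably. HARS stood at 105 and 96.3 CPM in wild-type cells and at 96.8 and 97.5 CPM in the knockout clone, so the groups overlapped. Its log2 fold change of knockout over wild-type was -0.05 ± 0.07 (SE, edgeR adjusted p = 0.826), with a 95% interval of -0.19 to 0.09, that is, from 12.1% lower (-12.1%) to 6.62% higher. The direction of HARS was not stable: without wild-type replicate 1 its log2 fold change was 0.01.

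HARS2 had 39.7 and 38.9 CPM in wild-type and 35.9 and 37.0 CPM in knockout. Both knockout libraries lay below both wild-type libraries. The log2 fold change was -0.11 ± 0.09 (edgeR adjusted p = 0.627), with a 95% interval of -0.28 to 0.07, so the order of the libraries did not amount to a called difference. HARS2 reached 37.9 and 40.4 counts for every 100 HARS counts in wild-type, against 37.1 and 37.9 in knockout. THG1L, which adds the extra guanosine at the 5′ end of histidine tRNA, had 26.2 and 22.4 CPM in wild-type and 25.5 and 20.6 CPM in knockout (log2 fold change -0.07 ± 0.11, edgeR adjusted p = 0.836).

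**Figure D1:**
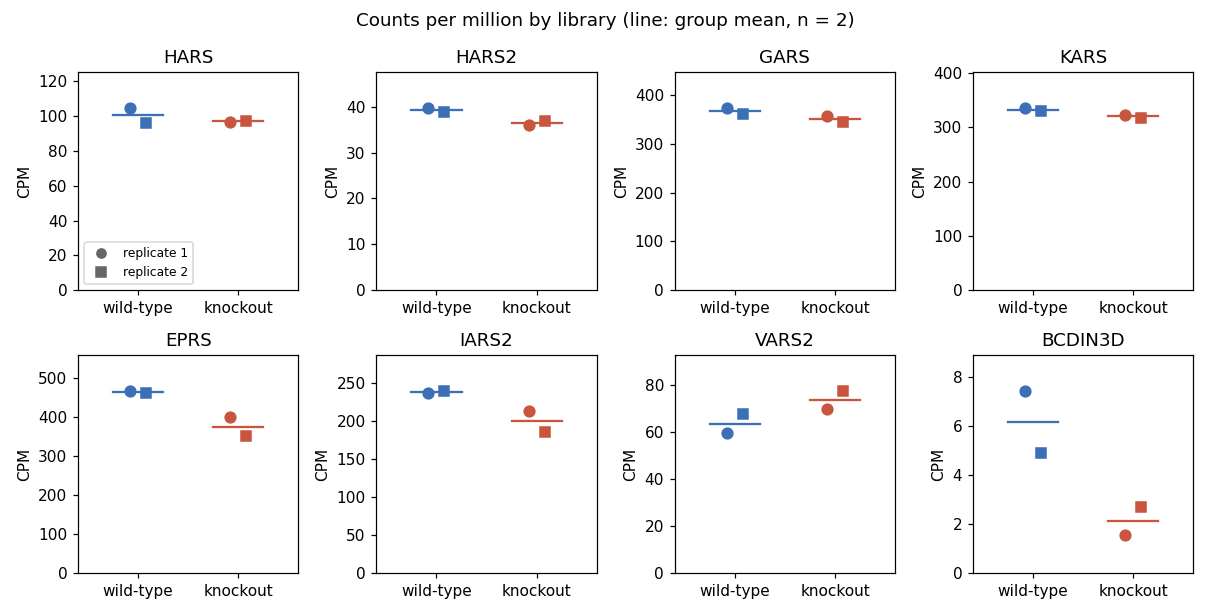
CPM (vertical axes, each from 0) in the 2 wild-type and 2 knockout libraries for 7 synthetase genes and BCDIN3D; circles are replicate 1, squares replicate 2 and lines the group means. HARS overlaps between the genotypes. HARS2, GARS, KARS, EPRS, IARS2 and BCDIN3D are lower in both knockout libraries, and VARS2 is higher. Of the 7 synthetase genes only EPRS and IARS2 had an edgeR adjusted p under 0.05, while VARS2 had 0.122.

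Of the 20 cytosolic genes 0 rose and 1 fell, EPRS. Over all 16233 tested genes 3.06% were called higher and 3.50% lower at an adjusted p under 0.05, so 1 fall among 20 is near that background. All 20 were well counted, with 1565 to 18788 counts in every library. Their median log2 fold change was -0.05, against 0.00 over all tested genes, and the median absolute log2 fold change was 0.06 against 0.12. All tested genes include ones with far fewer counts and larger standard errors, so the absolute medians are not compared at equal precision. At an unadjusted p under 0.05 there were 2, EPRS and WARS, where 16.7% of all tested genes passed.

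EPRS encodes a fused enzyme that charges both glutamate and proline tRNAs in the cytosol. Wild-type libraries held 465 and 462 CPM, knockout libraries 398 and 351 CPM. The wild-type libraries were nearly equal and both knockout libraries lay below them, replicate 2 further than replicate 1. EPRS fell by 19.05% (95% interval -25.4% to -12.1%), a log2 fold change of -0.30 ± 0.06 (edgeR adjusted p = 0.000217). It was called under every alternative run, among them DESeq2 (adjusted p = 0.000407) and each fit that left out 1 library.

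The other 19 cytosolic genes missed the threshold, with log2 fold changes between -0.13 and 0.11. WARS, for tryptophan, had 176 and 180 CPM in wild-type and 166 and 159 CPM in knockout, with no overlap (-0.13 ± 0.06, edgeR adjusted p = 0.268). AARS, for alanine, had 330 and 314 CPM in wild-type against 319 and 274 CPM in knockout (-0.12 ± 0.06, edgeR adjusted p = 0.340). Its lowest library was knockout replicate 2, and without knockout replicate 1 it was called lower (log2 fold change -0.23, edgeR adjusted p = 0.00791).

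The enzymes that serve both compartments did not change detectably. GARS had 373 and 362 CPM in wild-type and 357 and 345 CPM in knockout (-0.06 ± 0.06, edgeR adjusted p = 0.673, 95% interval -0.18 to 0.05). KARS had 335 and 330 CPM in wild-type and 324 and 318 CPM in knockout (-0.05 ± 0.06, edgeR adjusted p = 0.745, 95% interval -0.17 to 0.06). In both genes the knockout libraries lay just below the wild-type libraries, and both intervals include 0.

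The remaining cytosolic genes are given by direction of the fitted value only, since none was called. FARSB, a subunit of the phenylalanine enzyme (-0.12), RARS for arginine (-0.10), NARS for asparagine (-0.08), TARS for threonine (-0.06), LARS for leucine (-0.05) and YARS for tyrosine (-0.03) had log2 fold changes below 0. VARS for valine (0.11), FARSA, the partner of FARSB (0.06), CARS for cysteine (0.04), SARS for serine (0.04), QARS for glutamine (0.04), MARS for methionine (0.03), DARS for aspartate (0.03) and IARS for isoleucine (0.01) had values above 0. Across the 20 genes the 95% interval lay wholly between a 20% loss (-20%) and a 25% gain for 19, EPRS being the exception.

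Of the 16 mitochondrial genes 0 rose and 1 fell, IARS2, where 3.06% of all tested genes were called higher and 3.50% lower. DESeq2 too called 0 higher and 1 lower in this set, and 0 higher and 1 lower in the cytosolic set. Their median log2 fold change was -0.04 and their median absolute log2 fold change 0.08. They were counted less precisely than the cytosolic ones, with 128 to 5889 counts per library and standard errors of 0.06 to 0.17, against 0.05 to 0.07 for the cytosolic set. At an unadjusted p under 0.05 there were 3, IARS2, VARS2 and CARS2, where 16.7% of all tested genes passed.

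IARS2 encodes the mitochondrial isoleucine enzyme. Wild-type libraries held 237 and 238 CPM, knockout libraries 213 and 186 CPM. As with EPRS, the wild-type libraries were nearly equal, both knockout libraries were lower and replicate 2 was the lowest. IARS2 fell by 16.2% (95% interval -23.2% to -8.50%), a log2 fold change of -0.25 ± 0.06 (edgeR adjusted p = 0.00517, DESeq2 adjusted p = 0.0262). The call was lost without wild-type replicate 1 (adjusted p = 0.0611), without wild-type replicate 2 (adjusted p = 0.0969) and without knockout replicate 2 (log2 fold change -0.16, adjusted p = 0.234). The cytosolic isoleucine gene IARS, by contrast, had 766 and 761 CPM in wild-type and 777 and 760 CPM in knockout, with a 95% interval of the log2 fold change from -0.10 to 0.12 (edgeR adjusted p = 0.970).

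VARS2, the mitochondrial valine enzyme, had 59.6 and 68.0 CPM in wild-type and 70.1 and 77.4 CPM in knockout. Both libraries of each genotype differed by date, replicate 2 being higher in each, and the knockout libraries lay above both wild-type libraries. Its log2 fold change was 0.21 ± 0.08 (edgeR adjusted p = 0.122). With the date as a block VARS2 was called higher (blocked adjusted p = 0.0277), at a nearly equal log2 fold change of 0.21. In that blocked fit 4.72% of all tested genes were called higher and 4.83% lower, and VARS2 was the only member whose call differed from the unblocked fit. It was also called without knockout replicate 1 (adjusted p = 0.0225), and DESeq2 gave an adjusted p of 0.554.

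WARS2, for tryptophan, had 27.1 and 26.0 CPM in wild-type and 23.98 and 23.2 CPM in knockout, with no overlap but no call (-0.17 ± 0.10, edgeR adjusted p = 0.435). TARS2, for threonine, which like EPRS and IARS2 lies on the long arm of chromosome 1, had 74.8 and 83.8 CPM in wild-type and 73.9 and 75.5 CPM in knockout (-0.09 ± 0.08, edgeR adjusted p = 0.647). The groups of TARS2 overlapped. CARS2, for cysteine (0.15), AARS2, for alanine (0.12), and EARS2, for glutamate (0.07), had fitted log2 fold changes above 0, and in all 3 the knockout libraries lay above the wild-type libraries without a call.

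The others lay below 0. SARS2, for serine, was the least counted member, at 137 and 180 wild-type counts against 128 in each knockout library, and its 95% interval was the widest (-0.50 to 0.19). PARS2 for proline (-0.07), RARS2 for arginine (-0.06), FARS2 for phenylalanine (-0.05), LARS2 for leucine (-0.03), NARS2 for asparagine (-0.03), MARS2 for methionine (-0.02) and YARS2 for tyrosine (-0.01) were within 0.07 of 0. None of these was called under any alternative run.

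**Figure D2:**
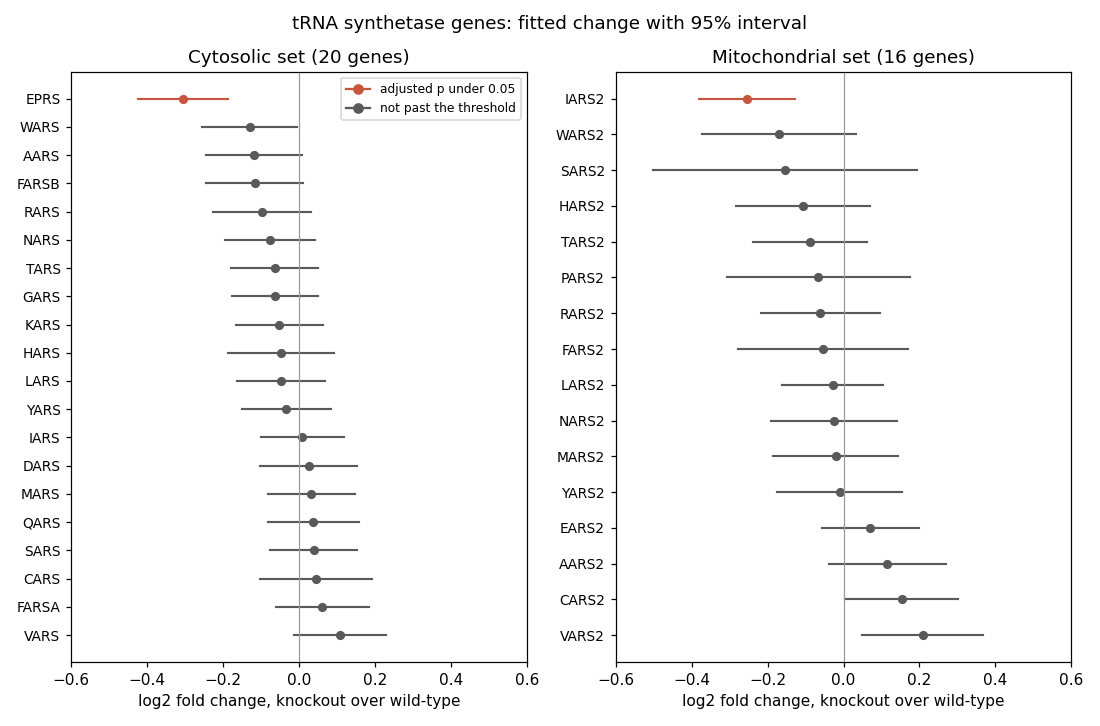
Log2 fold change of knockout over wild-type (horizontal axes) for the 20 cytosolic and 16 mitochondrial genes, sorted within each set; points are fitted values and lines 95% intervals, 2 libraries for each genotype. EPRS at -0.30 and IARS2 at -0.25 are the only called members, drawn in red.

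Seen across both sets, the knockout libraries lay below both wild-type libraries for 12 of 36 genes and above them for 5. Over all tested genes 21.8% lay wholly below and 23.5% wholly above. Fitted log2 fold changes were below 0 for 24 members and above 0 for 12. Of all tested genes 8057 were below and 8176 above 0. For 14 of 20 cytosolic and 13 of 16 mitochondrial genes the knockout differed from wild-type in the same direction at both dates, as did 63.4% of all tested genes.

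The summed level of each set differed little between libraries. The cytosolic genes summed to 5966 and 5859 CPM in wild-type and 5843 and 5628 CPM in knockout, and the mean fell by 2.996%. The mitochondrial genes summed to 1117 and 1121 CPM in wild-type and 1094 and 1086 CPM in knockout, and the mean fell by 2.56%. For both sums the knockout libraries lay below the wild-type libraries. Without EPRS and IARS2, a choice made after their values were seen, the groups overlapped: 5501 and 5398 against 5444 and 5277 CPM for the 19 other cytosolic genes, and 880 and 883 against 882 and 900.2 CPM for the 15 other mitochondrial genes. For every 100 cytosolic CPM there were 18.7 and 19.1 mitochondrial CPM in wild-type and 18.7 and 19.3 in knockout, so the balance between the sets overlapped as well. These are shares of the counted RNA, and fewer transcripts in each cell and fewer cells with the transcript cannot be told apart in them.

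**Figure D3:**
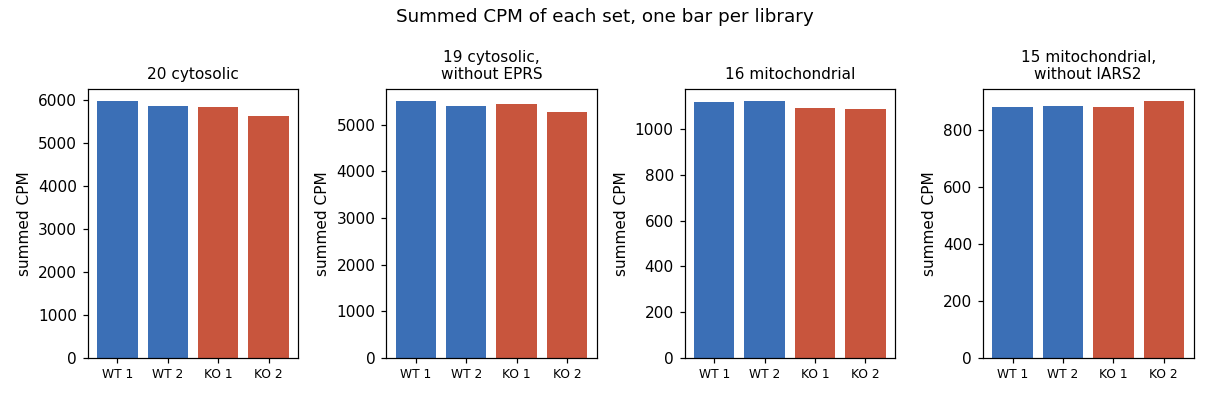
Summed CPM (vertical axes, from 0) of the cytosolic and mitochondrial sets, with and without their called member, one bar for each of the 4 libraries (WT wild-type, KO knockout). With EPRS and IARS2 left out the genotypes overlap, for instance 880 and 883 against 882 and 900.2 CPM for the mitochondrial set.

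The 2 called members are near neighbours. EPRS (219968600 to 220046505) and IARS2 (220094132 to 220148041) lie on the long arm of chromosome 1, are read away from each other, and have 47.6 kb between them (GRCh38, RefSeq). That interval holds BPNT1, a nucleotide phosphatase gene (220057482 to 220089788). BPNT1 had 34.4 and 36.1 CPM in wild-type and 26.2 and 28.1 CPM in knockout. It was called lower too (-0.38 ± 0.09, edgeR adjusted p = 0.00562, DESeq2 adjusted p = 0.0889), and the call was lost without wild-type replicate 2 (edgeR adjusted p = 0.138).

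Beyond this run of 3 genes the fitted falls were smaller. RAB3GAP2, whose span lies just past that of IARS2, takes part in Rab GTPase control. It had 110 and 106 CPM in wild-type and 106 and 93.2 CPM in knockout (-0.12 ± 0.07, edgeR adjusted p = 0.442). The kinase gene MARK1 had a log2 fold change of -0.08 ± 0.10 (edgeR adjusted p = 0.758). The pseudogene MORF4L1P1, which lies inside RAB3GAP2, had -0.19 ± 0.11 (edgeR adjusted p = 0.417). Besides EPRS and IARS2 themselves 4 tested genes lay within 500 kb of them, of which 1, BPNT1, was called lower, and the median log2 fold change of these 4 was -0.15. Over the 613 tested genes of the long arm of chromosome 1, 57 (9.30%) were called lower and 8 higher. Of all tested genes 3.50% were called lower and 3.06% higher. The 57 include EPRS, IARS2 and BPNT1. The median of the arm was -0.09, against 0.01 over all other tested genes. Only 14228 tested genes (87.65%) had a RefSeq position. Those without one were counted among the others, so the arm and the windows may miss some genes. The part of the position of EPRS and IARS2 in their fall was not tested. BPNT1, RAB3GAP2, MORF4L1P1 and MARK1 were chosen after the values of EPRS and IARS2 were seen.

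Besides HARS and HARS2 themselves 8 tested genes lay within 100 kb of them, and 0 were called higher or lower without the block. ZMAT2 next to HARS2 (-0.04 ± 0.08), WDR55 next to HARS (0.01 ± 0.09), IK (-0.10 ± 0.07) and TMCO6 (0.11 ± 0.12) had fitted log2 fold changes of 0.11 or less in size. NDUFA2, a subunit gene of respiratory complex I whose span lies inside that of TMCO6, had 47.4 and 49.7 CPM in wild-type and 59.3 and 55.3 CPM in knockout. Its log2 fold change was 0.24 ± 0.08 (edgeR adjusted p = 0.0692). With the date as a block NDUFA2 was called higher (blocked adjusted p = 0.0244), and also without knockout replicate 2 (adjusted p = 0.04995).

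The fitted changes of largest size in this window were those of vault RNA genes, which encode short RNAs that resemble one another, so that reads could be split between them. VTRNA1-3 rested on 44 and 34 knockout counts against 21 and 23 in wild-type (0.97 ± 0.34, edgeR adjusted p = 0.0844). For VTRNA1-2 the knockout libraries held 73 and 74 counts, the wild-type ones 46 and 57 (0.66 ± 0.24, edgeR adjusted p = 0.104). In both the knockout libraries lay above the wild-type libraries without a call. VTRNA1-1 overlapped, with 14 and 15 against 7 and 20 counts (0.05 ± 0.49, edgeR adjusted p = 0.981). These neighbours too were chosen after the HARS and HARS2 values were seen.

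**Figure D4:**
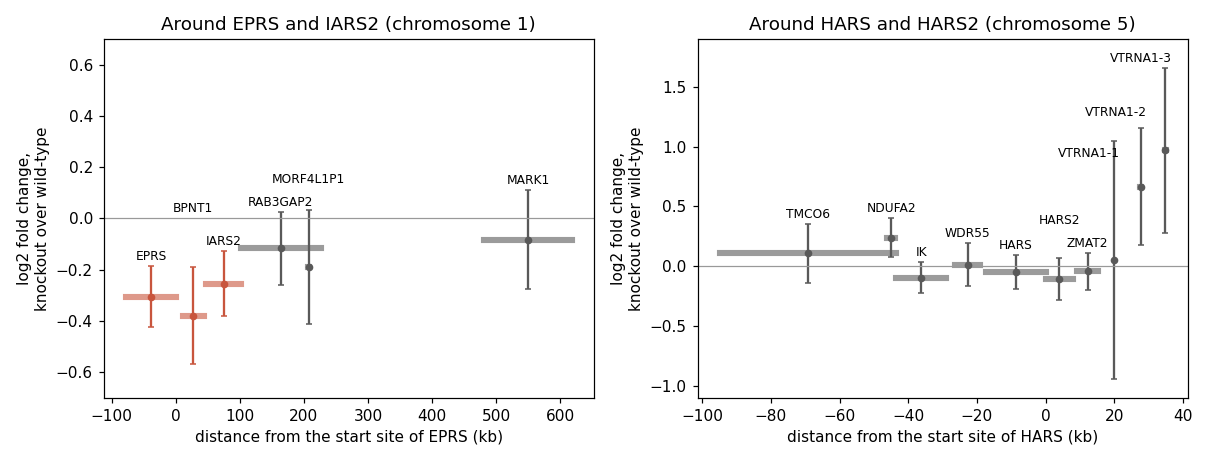
Log2 fold change of knockout over wild-type (vertical axes) of tested genes against distance from the start site of EPRS (left) and of HARS (right), in kb; thick bars span each gene, points sit at its middle and thin lines are 95% intervals. EPRS, BPNT1 and IARS2, in red, lie between -0.38 and -0.25. HARS and HARS2 lie near 0, and the vault RNA genes at the far right have wide intervals, with fitted values of 0.05 to 0.97.

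The 250 bases before the start sites of EPRS and IARS2 are shown because these are the members that fell. Capitals mark GC boxes (GGGCGG, a site of Sp1-type factors) and CCAAT boxes on either strand. GC boxes that overlap were counted separately.
EPRS, GRCh38.p14 chr1:220046506-220046755, strand -: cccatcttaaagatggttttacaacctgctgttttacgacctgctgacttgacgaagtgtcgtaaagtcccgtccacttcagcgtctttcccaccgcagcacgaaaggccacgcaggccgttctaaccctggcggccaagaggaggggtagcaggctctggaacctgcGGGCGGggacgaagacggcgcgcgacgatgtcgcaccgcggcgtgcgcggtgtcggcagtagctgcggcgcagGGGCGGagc
IARS2, GRCh38.p14 chr1:220093882-220094131, strand +: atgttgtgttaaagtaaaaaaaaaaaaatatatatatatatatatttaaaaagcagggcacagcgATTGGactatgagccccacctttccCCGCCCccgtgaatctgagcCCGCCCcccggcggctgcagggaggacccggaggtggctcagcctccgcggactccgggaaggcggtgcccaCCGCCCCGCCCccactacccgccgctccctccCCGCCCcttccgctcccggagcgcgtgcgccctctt
EPRS had 2 GC boxes and 0 CCAAT boxes in this stretch, and IARS2 had 5 GC boxes and 1 CCAAT box. In the windows of 300 bases a GC box was in 10 of 16 cytosolic and 10 of 14 mitochondrial members, against 44.5% of all windows, and a CCAAT box in 7 and 9, against 35.7%. Both members that fell had GC boxes, as did members that did not fall. The part of these boxes in the falls was not tested.

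Several cytosolic synthetases are induced, together with amino acid transporters and synthesis enzymes, by the transcription factor ATF4 when amino acids run short. The core of the DNA element through which ATF4 acts, TGATGNAA, was in 5 of 16 cytosolic and 1 of 14 mitochondrial windows, against 3.67% of all windows. The 6 matches are shown with 8 bases on either side, because more of them lay in the cytosolic set. That difference was not tested. DARS, LARS, VARS, YARS, AARS2 and VARS2 had no window and were not searched. Each is printed on the strand that carries the core, which is in capitals.
AARS, GRCh38.p14 chr16:70289678-70289701, strand +: aacttggcTGATGCAActgcgaga
CARS, GRCh38.p14 chr11:3057410-3057433, strand +: ctagaatcTGATGCAAccgccgcc
IARS, GRCh38.p14 chr9:92293695-92293718, strand +: cacggaggTGATGCAAcgcgctga
MARS, GRCh38.p14 chr12:57488056-57488079, strand -: tccctcgcTGATGCAAccggaacc
NARS, GRCh38.p14 chr18:57621807-57621830, strand -: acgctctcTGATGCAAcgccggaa
YARS2, GRCh38.p14 chr12:32756079-32756102, strand -: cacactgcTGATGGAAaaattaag
All 5 cytosolic matches read TGATGCAA, and the YARS2 match reads TGATGGAA.

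The genes that carried the element were not called. The fitted log2 fold changes were -0.12 for AARS, 0.04 for CARS, 0.01 for IARS, 0.03 for MARS, -0.08 for NARS and -0.01 for YARS2. ATF4 itself had a log2 fold change of -0.03 ± 0.06 (edgeR adjusted p = 0.901). Of 27 tested genes of the amino acid response 1 was higher and 0 were lower, against 3.06% and 3.50% of all tested genes. The higher one was PYCR1, a proline synthesis enzyme (0.20 ± 0.06, edgeR adjusted p = 0.0446). The PYCR1 call was lost with DESeq2 (adjusted p = 0.216), with library size alone as the scale (adjusted p = 0.109) and with DESeq2 size factors (adjusted p = 0.0531). It was also lost without wild-type replicate 1 (adjusted p = 0.720) and without knockout replicate 2 (adjusted p = 0.403). With the date as a block 1 gene of this list was higher, PYCR1 (blocked adjusted p = 0.00427), and 3 were lower. The lower ones were STC2 (blocked adjusted p = 0.0276), PSAT1 (blocked adjusted p = 0.0305) and CEBPB (blocked adjusted p = 0.0451). That fit called 4.72% of all tested genes higher and 4.83% lower.

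In the cytosol 8 synthetases sit together in a multisynthetase complex: EPRS, IARS, LARS, QARS, MARS, KARS, RARS and DARS. Of these 0 were higher and 1 lower, EPRS, against 3.06% and 3.50% of all tested genes. The median log2 fold change of the 8 was -0.02. Their summed level without EPRS was 2411 and 2406 CPM in wild-type and 2418 and 2375 CPM in knockout, with overlap. The 3 scaffold proteins of the complex missed the threshold. AIMP1 had 64.8 and 61.4 CPM in wild-type and 57.0 and 53.1 CPM in knockout (-0.20 ± 0.08, edgeR adjusted p = 0.158). EEF1E1 had 23.3 and 22.1 CPM in wild-type and 18.8 and 19.2 CPM in knockout (-0.25 ± 0.11, edgeR adjusted p = 0.190). Both were lower in both knockout libraries without a call. AIMP2 overlapped, with 64.9 and 60.6 against 63.7 and 68.3 CPM (0.07 ± 0.08, edgeR adjusted p = 0.732).

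Other partners of the synthetases gave 0 calls by edgeR. Among 11 tested companions (of 12 listed), some of which proofread, export or carry tRNA to the ribosome, 0 were higher and 0 lower. Of all tested genes 16.7% had an unadjusted p under 0.05, against 1 companion. That was DTD1, which removes wrongly attached D-amino acids from tRNA, with 83.9 and 91.6 CPM in wild-type and 95.7 and 100.4 CPM in knockout (0.16 ± 0.07, edgeR adjusted p = 0.222, DESeq2 adjusted p = 0.708). TARSL2, a second cytosolic threonine enzyme, had 0.12 ± 0.10 (edgeR adjusted p = 0.605).

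In mitochondria the charged tRNAs feed a separate set of translation factors. Among the 16 tested factors is the amidotransferase that completes glutamine tRNA after EARS2 has charged it with glutamate. Of the 16, 0 were higher and 0 lower by edgeR. An unadjusted p under 0.05 was reached by 1, against 16.7% of all tested genes. The ribosome recycling factor gene MRRF had 67.7 and 65.3 CPM in wild-type and 58.7 and 59.8 CPM in knockout (-0.17 ± 0.08, edgeR adjusted p = 0.246, DESeq2 adjusted p = 0.732). The elongation factor gene GFM1 had -0.13 ± 0.07 (edgeR adjusted p = 0.357). The median log2 fold change of the 16 factors was -0.01.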

How the data were processed

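The authors deposited raw read counts per gene symbol, 1 table for each library. Per the submitters' processing notes, FastQC, cutadapt, STAR, SAMtools, featureCounts and Subread were used with build hg38. Their roles and versions, the annotation and the strand setting were not given in the sources used here. Counts are unnormalised, and genes that overlap others on the genome may lose or gain reads: MARS, YARS, CARS2, EARS2 and FARS2 overlap a protein-coding gene in RefSeq. EPRS overlaps a small nucleolar RNA gene there, and IARS2 overlaps long noncoding RNA genes, a small nucleolar RNA gene and a pseudogene. Several other members overlap noncoding genes or pseudogenes. The small RNA libraries were not used.

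The tables were joined and fitted with edgeR 4.0.16 (R 4.3.3). Genes were kept by filterByExpr (minimum count 10), scaled by TMM, and tested by the robust quasi-likelihood F test over all 4 libraries, with Benjamini-Hochberg adjustment over 16233 genes and a threshold of 0.05. All 36 members passed the filter. The standard error is the log2 fold change divided by the square root of F, and 95% intervals are unadjusted. Library replicates differed by more than sampling noise (chi-square per degree of freedom 3.62 and 4.37), so none was counted as a duplicate. The date in the labels pairs the libraries; log2 differences between dates correlated across genes at r = 0.14 between genotypes. Alternatives were the date as a block, DESeq2 1.42.0, other scaling, no filter and leaving out each library. The fit was tested on simulated data.

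All members were named. Values per library went to BCDIN3D, HARS, HARS2, GARS, KARS, called members, the 3 largest changes in each set and members on the long arm of chromosome 1. Of each companion list up to 2 called genes each way, or the 2 of smallest p, were named, with the scaffold genes and THG1L. IARS, ATF4 and SARS2 were given per library or in full outside this rule, after their values were seen. STC2, PSAT1 and CEBPB were also named outside it, after their values were seen. Members and lists were chosen with earlier results of these data known. Positions and promoter windows came from RefSeq (GRCh38.p14), matched by symbol. All 36 members had a position and 30 a window.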

Additional observations from a re-analysis of the deposited data

How the results depend on the processing

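Over all tested genes 497 were called higher and 568 lower; DESeq2 called 234 and 279, and the replicate block (the date) 767 and 784. Leaving out 1 library at a time gave 240 (without wild-type replicate 1) to 684 (without knockout replicate 1) higher and 340 (without wild-type replicate 2) to 705 (without knockout replicate 1) lower. It was 320 higher without wild-type replicate 2 and 301 without knockout replicate 2. Of the cytosolic genes 0 were called higher in every fit run, and 1 to 2 were lower with 1 library left out. Of the mitochondrial genes 1 was higher with the replicate block, 0 to 1 were higher and 0 to 1 lower with 1 library left out. The block changed no other member's call. With 1 library left out, a genotype has a single library, which is assumed to vary like the other genotype's.

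With all libraries kept, 177 of 180 fits of single members held direction and call. VARS2 gained its call under the block, and library size alone turned DARS to -0.00183 and IARS to -0.018, neither called. With 1 library left out, members with small values turned direction, all uncalled: DARS ranged from -0.068 to 0.11, HARS -0.10 to 0.010, IARS -0.00705 to 0.027, LARS -0.10 to 0.00926, MARS -0.017 to 0.083, YARS -0.082 to 0.016, FARS2 -0.19 to 0.079, LARS2 -0.091 to 0.034, MARS2 -0.060 to 0.021, NARS2 -0.14 to 0.084, TARS2 -0.17 to 9e-05 and YARS2 -0.060 to 0.043. THG1L ranged from -0.24 to 0.075.

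The summed cytosolic set changed by -4.78% and the mitochondrial set by -4.35% with library size alone. The cytosolic change ranged from -4.81% to -1.18% with 1 library left out. Without EPRS it was -1.63%, and without IARS2 the mitochondrial change was 1.12%, both chosen after the data were seen. Where no value above shows it, the cause was not tested. Intervals rest on 2 libraries for each genotype, with the spread partly shared across all tested genes. For a member that was not called, a change of a size inside its interval is not excluded.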
